A study of Homo sapiens with 6 samples.

Results

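Antisense transcripts are RNAs read from the DNA strand opposite a protein-coding gene, and they carry that gene's name with a hyphen, the letters AS and a number. The members described here were the rows of a gene expression table of HEK293 cells whose symbol had that form and whose mean level over all libraries was at least 0.5 RPKM, a read count scaled by exonic length and library total. They were thus selected on their mean level over both groups. EPB41L4A-AS1 and OIP5-AS1 were left out by name. Of 878 antisense transcripts among 57773 genes in the table, 230 met the rule, 646 were under the limit and 205 of those had no count in any library. The difference between the groups was not used, so levels are given as a description and differences were tested. Each member was set beside the gene named before the hyphen, its sense gene, which had a row for 219 members and was one of 215 different genes. Of the other 11 members, 10 are named for a whole HOX cluster and the last is JHDM1D-AS1.

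HEK293 is an established line of human embryonic kidney cells. RNA-seq was made from 3 knockdown libraries of TRDMT1 and 3 control libraries, so named by the labels, with no treatment, time point or knockdown reagent given for either group. TRDMT1, also called DNMT2, methylates cytosine in certain tRNAs, and the study asked what it does in these cells. Ribosomal RNA was depleted and stranded total RNA libraries were prepared, so transcripts without a poly(A) tail could be counted, and the protocol also names an RNA bisulfite kit.

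Antisense transcripts are a mixed class. Some start back to back with a coding gene from one shared promoter region and are read away from it, some overlap its first or last exons, and some lie wholly inside it. Many are spliced long noncoding RNAs kept at low levels in the nucleus and degraded by the RNA exosome, and a few are known to raise or lower the gene they oppose. Because both RNAs share genomic DNA, reads from one can be assigned to the other unless the counting uses strand.

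The libraries labelled knockdown held 36455950 to 40088993 counts and those labelled control 24776040 to 26802182. TRDMT1 went against the labels, at 0.58 RPKM in each library labelled knockdown and 0.36, 0.36 and 0.28 RPKM in those labelled control, with a log2 fold change of 0.61 ± 0.21 (SE, adjusted p = 0.0705, edgeR quasi-likelihood test). Directions below therefore rest on the labels alone. The HEK293 markers NEFL, NEFM, INA, VIM, CDH2, PAX2 and LHX1 were present, and summed to 362 to 372 RPKM in the libraries labelled knockdown and 413 to 533 RPKM in those labelled control. VIM made up most of each sum, with 227.1 to 232.2 RPKM in the libraries labelled knockdown and 290.9, 456.4 and 263.2 RPKM in those labelled control. PAX2, LHX1, CDH2 and INA were instead higher in every library labelled knockdown than in any control, INA by little (19.08 against 18.92 RPKM at the closest). All markers of this set but VIM were lowest in control replicate 2. Markers of blood, liver, keratinocytes and fibroblasts summed to 3.86 to 4.28 RPKM in the libraries labelled knockdown and to 3.98, 0.57 and 5.03 RPKM in those labelled control. COL1A1 made up most of that sum, PTPRC, CD3E, APOB and KRT14 were at or below 0.1 RPKM in every library, and the part of these markers in the results was not tested. Separate cultures are not stated for the libraries of a group. The p-values therefore cover only library-to-library spread, possibly technical, and fewer cells of a type and less RNA per cell cannot be told apart.

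The 230 members were mostly low in level. Their median of mean RPKM was 1.69, with 30 at 5 RPKM or more and 61 under 1 RPKM. The median member reached 26.9% of its sense gene's mean RPKM, and 49 members lay above their sense gene. Just inside the limit were RHPN1-AS1 with a mean of 0.503 RPKM and OR2A1-AS1 with 0.502 RPKM, and just outside it UXT-AS1 with 0.488 RPKM and GNG12-AS1 with 0.483 RPKM. In GENCODE release 29, which held 226 of the 230 identifiers, 162 members were annotated as antisense RNAs, 29 as long intergenic noncoding RNAs, 22 as processed transcripts and 6 as protein coding.

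The highest member was FAM211A-AS1, named LRRC75A-AS1 in GENCODE. Levels here and below are RPKM after TMM scaling, which adjusts each library for its composition. FAM211A-AS1 had 61.4, 62.5 and 56.7 RPKM in the libraries labelled knockdown, against 82, 329.8 and 63.4 RPKM in those labelled control. The groups did not differ past the threshold (log2 fold change -1.40 ± 0.60, adjusted p = 0.132), and control replicate 2 stood far above the other controls. FGD5-AS1 came next, with 39.7, 37.8 and 36.5 RPKM in the libraries labelled knockdown and 43, 25.6 and 39.1 RPKM in those labelled control, so the groups overlapped. NCBP2-AS2 averaged 23.2 ± 1.28 RPKM in the libraries labelled knockdown and 33.4 ± 11.6 RPKM in those labelled control (SD, n = 3 each), and the difference did not pass the threshold (adjusted p = 0.16). Its sense gene NCBP2, the small subunit of the nuclear cap-binding complex, fell to 12.7 ± 0.229 RPKM in the libraries labelled knockdown, against 21.9 ± 0.347 RPKM in those labelled control (log2 fold change -0.78 ± 0.10, adjusted p = 0.0031). PITPNA-AS1 averaged 19.7 ± 3.03 RPKM in the libraries labelled knockdown and 29 ± 9.28 RPKM in those labelled control (adjusted p = 0.142). Neither PITPNA (log2 fold change 0.10 ± 0.11, adjusted p = 0.506) nor FAM211A (0.12 ± 0.17, adjusted p = 0.633) passed the threshold.

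Of the antisense transcripts that differed between the groups, most were higher in the libraries labelled knockdown, among them VPS9D1-AS1, USP46-AS1 and PSMD5-AS1. HNRNPU-AS1 and THAP9-AS1 led the few that were lower. The filter on low counts passed 224 of the 230 members. By edgeR's quasi-likelihood test, with p-values adjusted over all 17805 tested genes and a threshold of 0.05, 24 members rose in the libraries labelled knockdown, 6 fell and 194 did not pass. That is 13.4% of the members tested, where 24% of all genes tested were called, 9.29% higher and 14.7% lower. Among members 10.7% were higher and 2.68% lower. Members had fewer counts than most genes, a median of 136 per library against 536 over all genes tested, and a wider median standard error of log2 fold change, 0.25 against 0.22. The median log2 fold change was 0.004 over members and -0.04 over all genes tested.

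In all 30 called members the 2 groups did not overlap. Over all tested members, 59 had every library labelled knockdown above every library labelled control and 31 had the reverse, where 23.9% and 26% of all genes tested did so. The rises reached 2-fold in 9 members and the falls in 4. Of the members, 204 met the level limit in both groups, 17 only through the libraries labelled knockdown, of which MID1IP1-AS1, CCDC183-AS1, LGALS8-AS1 and ZNF205-AS1 (4) were called higher, and 9 only through those labelled control, of which 0 were called lower. Among the 204, 203 were tested, and 20 of these were called higher and 6 lower. The counts over all members depended on single libraries: without control replicate 2 there were 62 higher and 23 lower calls, without control replicate 3 there were 31 and 16, without control replicate 1 there were 11 and 4, and without any one library labelled knockdown there were 3 to 4 higher and 3 to 4 lower. The calls over all genes tested moved as well. Without control replicate 2, 48.5% of all genes tested were called, beside 37.8% of members. Without control replicate 3 it was 29.2% beside 20.6%, and without control replicate 1 it was 11% beside 6.61%. Without a library labelled knockdown it was 6.67% to 7.37% beside 3.11% to 3.59%. All 30 calls were among those made without control replicate 2.

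**Figure D1:**
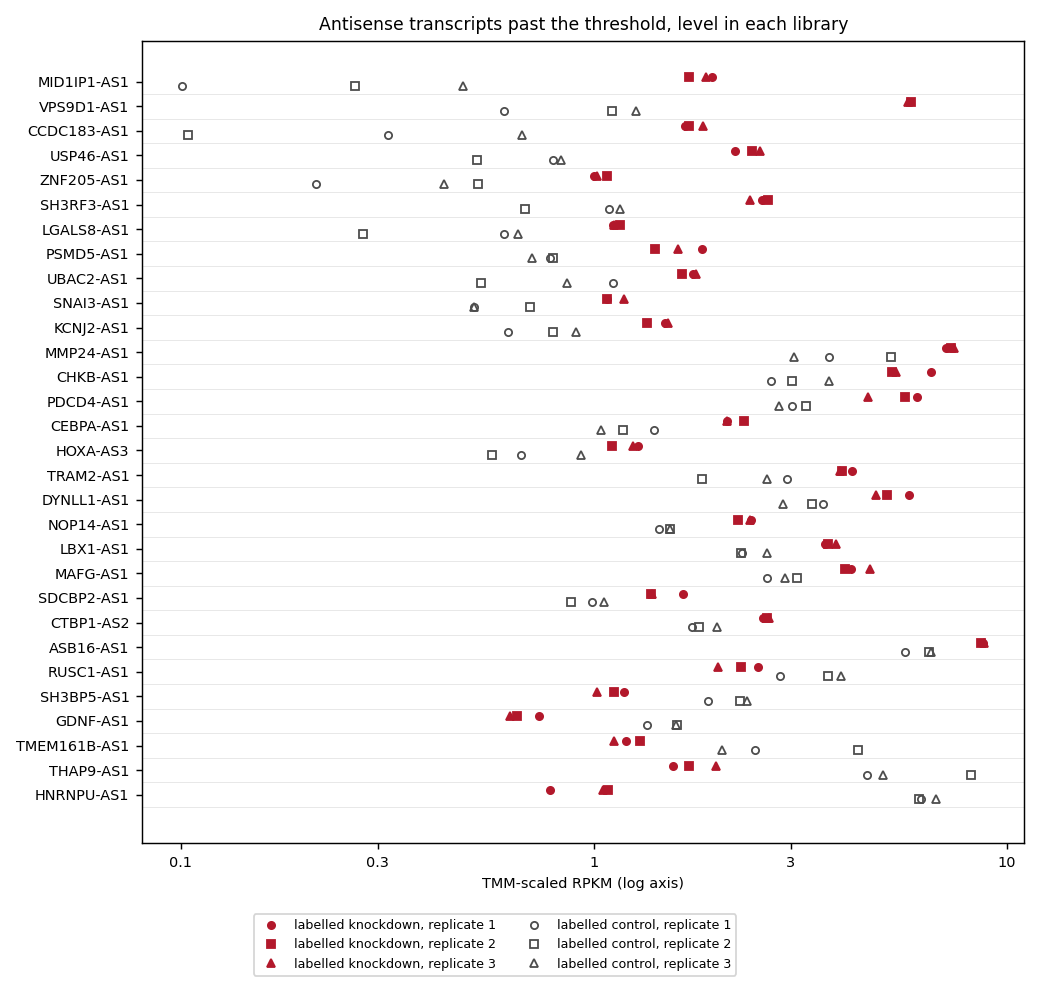
Level of each of the 30 called antisense transcripts in TMM-scaled RPKM (log axis), with filled symbols for the 3 libraries labelled knockdown and open symbols for the 3 labelled control. The rows are ordered by log2 fold change, and the filled and open symbols do not overlap in any row. The open symbols spread more than the filled ones in many rows but not in all. In the rows of HNRNPU-AS1, PSMD5-AS1 and PDCD4-AS1 the filled symbols spread more.

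VPS9D1-AS1, studied in colorectal cancer under the name MYU, rose most among members with more than a few counts in every library. It lies inside VPS9D1 at chr16:89711856-89718165 on the plus strand (GRCh38, GENCODE release 29). It had 5.84, 5.86 and 5.75 RPKM in the libraries labelled knockdown, against 0.606, 1.11 and 1.26 RPKM in those labelled control. All libraries labelled knockdown were far above all controls (log2 fold change 2.55 ± 0.27, adjusted p = 0.00171). VPS9D1, which carries the exchange factor domain that acts on Rab5 GTPases, averaged 7.03 ± 0.211 RPKM in the libraries labelled knockdown and 5.02 ± 0.189 RPKM in those labelled control (log2 fold change 0.49 ± 0.12, adjusted p = 0.0257). With GC content and length trends removed, VPS9D1 no longer passed (log2 fold change 0.20, adjusted p = 0.21) while VPS9D1-AS1 did (2.34 ± 0.26, adjusted p = 0.00285).

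MID1IP1-AS1 had the largest fitted rise, at very low counts. It met the limit on mean level only through the libraries labelled knockdown, so the selection favoured a rise. Its counts were 28, 25 and 30 in the libraries labelled knockdown, against 1, 2 and 5 in those labelled control. The ratio of summed counts, scaled by library size, was 6.38, with a 95% exact interval of 3.09 to 15.3 that covers counting error only, and the fitted log2 fold change was 2.63 ± 0.46 (adjusted p = 0.00868). Its sense gene MID1IP1, a regulator of lipid synthesis, overlapped between groups, at 16.6, 17.9 and 17.5 RPKM in the libraries labelled knockdown and 7.91, 17.8 and 6.16 RPKM in those labelled control.

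CCDC183-AS1 overlaps the 3' end of a coiled-coil protein gene. It had 1.66, 1.7 and 1.84 RPKM in the libraries labelled knockdown, against 0.318, 0.104 and 0.67 RPKM in those labelled control (log2 fold change 2.20 ± 0.50, adjusted p = 0.0214). The controls spread widely, all below the libraries labelled knockdown. It met the limit on mean level only through the libraries labelled knockdown. CCDC183 itself averaged 0.948 ± 0.0945 RPKM in the libraries labelled knockdown and 1 ± 0.499 RPKM in those labelled control, with overlapping groups.

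By GENCODE ends, USP46-AS1 starts 71 bases upstream of USP46, which encodes a deubiquitinase, and is read away from it. It had 2.2, 2.42 and 2.52 RPKM in the libraries labelled knockdown, against 0.797, 0.522 and 0.833 RPKM in those labelled control (log2 fold change 1.71 ± 0.25, adjusted p = 0.00456). USP46 did not follow, with a log2 fold change of -0.25 ± 0.13 (adjusted p = 0.206). SH3RF3-AS1, which by GENCODE ends likewise starts 418 bases upstream of a ubiquitin ligase gene, averaged 2.53 ± 0.124 RPKM in the libraries labelled knockdown and 0.976 ± 0.256 RPKM in those labelled control (log2 fold change 1.36 ± 0.24, adjusted p = 0.00892). RefSeq starts instead put SH3RF3-AS1 at -914 bases, inside that gene, so its arrangement depends on the annotation. UBAC2-AS1, upstream of a gene for an endoplasmic reticulum protein by 64 bases in GENCODE and 97 in RefSeq, had 1.74, 1.63 and 1.77 RPKM in the libraries labelled knockdown, against 1.11, 0.534 and 0.862 RPKM in those labelled control (log2 fold change 1.02 ± 0.28, adjusted p = 0.0375). Neither SH3RF3 (adjusted p = 0.0915) nor UBAC2 (adjusted p = 0.27) passed the threshold. ZNF205-AS1, beside a zinc finger gene, was also higher (log2 fold change 1.42 ± 0.33, adjusted p = 0.0235) without a call in ZNF205. Like MID1IP1-AS1 and LGALS8-AS1, it met the level limit only through the libraries labelled knockdown.

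PSMD5-AS1 and SNAI3-AS1 rose together with their sense genes. PSMD5-AS1, annotated in GENCODE as the pseudogene CUTALP, had 1.83, 1.41 and 1.6 RPKM in the libraries labelled knockdown, against 0.783, 0.798 and 0.707 RPKM in those labelled control (log2 fold change 1.08 ± 0.17, adjusted p = 0.00564). PSMD5, a chaperone of proteasome assembly, averaged 10.5 ± 0.381 RPKM in the libraries labelled knockdown and 5.75 ± 0.306 RPKM in those labelled control (log2 fold change 0.86 ± 0.12, adjusted p = 0.00351). SNAI3-AS1 spans the whole of SNAI3, which encodes a zinc finger repressor of the Snail family. It averaged 1.11 ± 0.0622 RPKM in the libraries labelled knockdown and 0.575 ± 0.109 RPKM in those labelled control (adjusted p = 0.0149), and SNAI3 averaged 1.42 ± 0.151 RPKM in the libraries labelled knockdown and 0.582 ± 0.106 RPKM in those labelled control (adjusted p = 0.01). SNAI3-AS1, VPS9D1-AS1 and ZNF205-AS1 lie on chromosome 16, whose protein-coding genes had a median log2 fold change of 0.53, the highest of the numbered chromosomes.

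The other 14 rises were smaller, with log2 fold changes from 0.49 for ASB16-AS1 to 0.90 for KCNJ2-AS1. Among them were HOXA-AS3 from the HOXA cluster, which averaged 1.21 ± 0.0935 RPKM in the libraries labelled knockdown and 0.723 ± 0.189 RPKM in those labelled control, and CEBPA-AS1, LBX1-AS1 and MAFG-AS1, each beside a transcription factor gene.

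Falls were fewer. HNRNPU-AS1 fell most, with 0.786, 1.08 and 1.06 RPKM in the libraries labelled knockdown, against 6.2, 6.13 and 6.73 RPKM in those labelled control (log2 fold change -2.70 ± 0.17, adjusted p = 0.000283). The controls lay close together, far above every library labelled knockdown. HNRNPU, which encodes an abundant RNA-binding protein of the nuclear matrix, had 129, 121 and 119 RPKM in the libraries labelled knockdown and 147, 75.8 and 139.6 RPKM in those labelled control, with overlapping groups. Its log2 fold change was 0.02 with all libraries (adjusted p = 0.957) and -0.22 without control replicate 2, where it passed the threshold.

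THAP9-AS1 overlaps the 5' end of THAP9, a gene derived from a DNA transposase. It had 1.56, 1.7 and 1.98 RPKM in the libraries labelled knockdown, against 4.58, 8.2 and 5.02 RPKM in those labelled control (log2 fold change -1.76 ± 0.25, adjusted p = 0.0047). THAP9 fell too, to 0.488 ± 0.0601 RPKM in the libraries labelled knockdown, against 1.47 ± 0.0933 RPKM in those labelled control (log2 fold change -1.59 ± 0.18, adjusted p = 0.00197). With GC content and length trends removed both kept their calls, at -1.57 ± 0.25 for THAP9-AS1 (adjusted p = 0.00822) and -0.87 ± 0.16 for THAP9 (adjusted p = 0.0125). GDNF-AS1 spans GDNF, which encodes a growth factor that acts through the RET receptor and guides branching of the embryonic kidney duct. It had 0.738, 0.652 and 0.626 RPKM in the libraries labelled knockdown, against 1.34, 1.59 and 1.58 RPKM in those labelled control (log2 fold change -1.16 ± 0.17, adjusted p = 0.00496), and GDNF fell as well (-0.89 ± 0.25, adjusted p = 0.0402). The call of GDNF was less firm, as GDNF passed the threshold in 6 of 14 alternative fits.

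TMEM161B-AS1 averaged 1.2 ± 0.0854 RPKM in the libraries labelled knockdown and 2.96 ± 1.24 RPKM in those labelled control (log2 fold change -1.29 ± 0.29, adjusted p = 0.0216). The transmembrane protein gene TMEM161B was lower too (-0.85 ± 0.13, adjusted p = 0.00618), but not past the threshold with GC content and length trends removed (-0.14, adjusted p = 0.526). SH3BP5-AS1, which overlaps the 3' end of a gene for a JNK-binding mitochondrial protein, averaged 1.11 ± 0.0845 RPKM in the libraries labelled knockdown (SD, n = 3), against 1.89, 2.27 and 2.35 RPKM in those labelled control (log2 fold change -0.97 ± 0.16, adjusted p = 0.00692). RUSC1-AS1 fell least (-0.63 ± 0.18, adjusted p = 0.0453), and passed the threshold in 4 of 14 alternative fits. Neither SH3BP5 nor RUSC1 passed the threshold.

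The sense genes changed in both directions, PSMD5, TRAM2 and KCNJ2 among the rises and KTN1, CEBPZ and ZEB1 among the falls. Of 210 sense genes tested, 33 rose in the libraries labelled knockdown and 34 fell, or 31.9% called beside 24% of all genes tested, at a median of 1114.5 counts per library. In the 208 pairs with both tested, 14 had both called: 8 both higher, 3 both lower and 3 opposite. In 15 pairs the antisense transcript alone was called, in 52 the sense gene alone, and in 127 neither. Both log2 fold changes had the same sign in 128 pairs. Across the 208 pairs Pearson's r of the log2 fold changes was 0.29 and Spearman's rho 0.35, and over the 204 pairs with annotation they were 0.23 and 0.27 after subtracting each chromosome's median, and 0.27 and 0.29 with GC content and length trends removed. The pairs share libraries, chromosome neighbourhood and base composition, so these are descriptions.

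**Figure D2:**
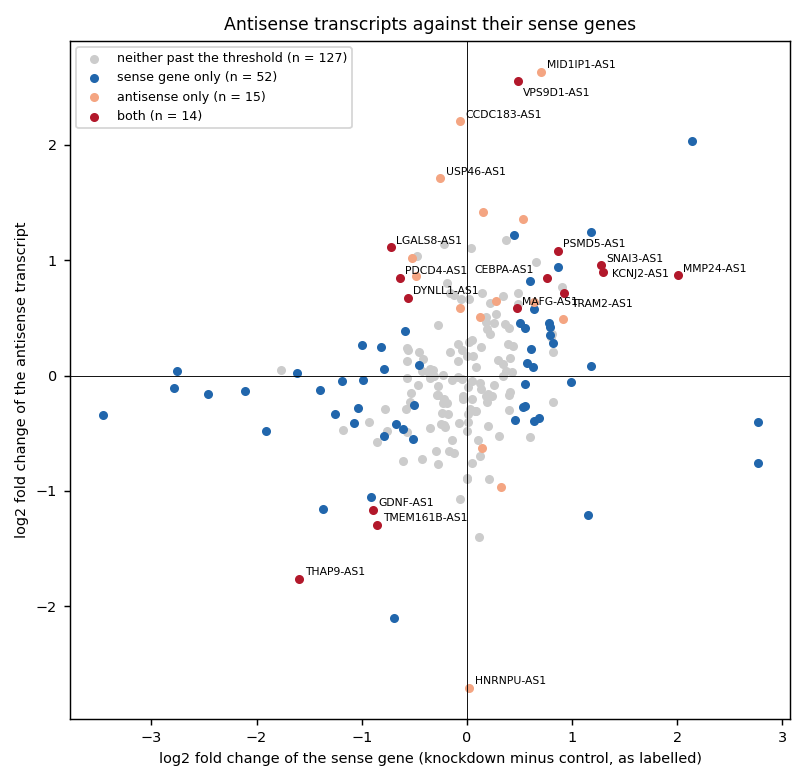
Log2 fold change of the antisense transcript (vertical axis) against that of its sense gene (horizontal axis), libraries labelled knockdown minus libraries labelled control, for 208 pairs coloured by which of the 2 was called. The sense-only points (n = 52) reach far to the left near a vertical value of 0, and the pairs with both called (n = 14) lie mostly in the upper right and lower left.

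In 15 pairs the sense gene fell at least 2-fold, with a median sense log2 fold change of -1.59 and an antisense median of -0.16. THAP9-AS1 was called lower and the other 14 antisense transcripts were not called, beside 13.4% of all tested members called in either direction. The examples that follow were chosen after their values were seen. KTN1, which encodes the kinesin anchor kinectin, had 1.39, 1.54 and 1.46 RPKM in the libraries labelled knockdown, against 18.8, 11.1 and 18.5 RPKM in those labelled control (log2 fold change -3.46 ± 0.23, adjusted p = 0.000341). KTN1-AS1 had 0.937, 0.848 and 0.768 RPKM in the libraries labelled knockdown and 1.03, 1.3 and 0.9 RPKM in those labelled control, and the groups overlapped (adjusted p = 0.264).

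ZEB1, a repressor that drives the change from epithelial to mesenchymal cells, had 0.427, 0.47 and 0.538 RPKM in the libraries labelled knockdown, against 2.65, 1.99 and 3.27 RPKM in those labelled control (log2 fold change -2.46 ± 0.22, adjusted p = 0.000859). ZEB1-AS1 averaged 2.07 ± 0.0655 RPKM in the libraries labelled knockdown and 2.32 ± 0.305 RPKM in those labelled control (adjusted p = 0.478). Per length, ZEB1-AS1 lay above ZEB1 in all 3 libraries labelled knockdown and in 1 of the 3 labelled control. HMGN3, a nucleosome-binding protein gene, fell to 37.5 ± 2.33 RPKM in the libraries labelled knockdown, against 161 ± 27.2 RPKM in those labelled control, with HMGN3-AS1 at 1.27 ± 0.0584 RPKM in the libraries labelled knockdown and 1.4 ± 0.414 RPKM in those labelled control. JMJD1C, of the histone demethylase family, fell by 2.76 on the log2 scale while JMJD1C-AS1 had a log2 fold change of 0.04 (adjusted p = 0.925).

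CEBPZ, a ribosome biogenesis factor, fell to 4.66 ± 0.267 RPKM in the libraries labelled knockdown, against 32.2 ± 2.22 RPKM in those labelled control (log2 fold change -2.79 ± 0.12, adjusted p = 0.000127). CEBPZ-AS1, a protein-coding gene in GENCODE under the name CEBPZOS and the fifth member by level, had 13.2, 15.8 and 15.2 RPKM in the libraries labelled knockdown and 17.9, 15.1 and 14.6 RPKM in those labelled control. Its log2 fold change was -0.10 ± 0.13 (adjusted p = 0.593), and with GC content and length trends removed it turned to 0.63 ± 0.10 (adjusted p = 0.0084).

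Among the 9 pairs whose sense gene rose at least 2-fold, the median log2 fold change was 1.30 on the sense side and 0.87 on the antisense side, and 3 antisense transcripts were called higher. These were MMP24-AS1, SNAI3-AS1 and KCNJ2-AS1. The largest of these sense rises was that of DLGAP1, a scaffold gene of synapses, which enters with 2 antisense transcripts (log2 fold change 2.77 ± 0.39, adjusted p = 0.00433). DLGAP1-AS1 (-0.40 ± 0.25, adjusted p = 0.259) and DLGAP1-AS2 (-0.75 ± 0.25, adjusted p = 0.0687) had log2 fold changes of the other sign and did not pass. UNC5B-AS1 likewise stood at -1.21 ± 0.38 (adjusted p = 0.0599) beside UNC5B, an axon guidance receptor gene, at 1.15 ± 0.11 on the log2 scale. MMP24, a membrane-bound metalloproteinase gene, averaged 1.04 ± 0.134 RPKM in the libraries labelled knockdown and 0.254 ± 0.128 RPKM in those labelled control, and MMP24-AS1, annotated as the protein-coding MMP24OS, 7.29 ± 0.169 RPKM in the libraries labelled knockdown and 4 ± 1.13 RPKM in those labelled control (log2 fold change 0.87 ± 0.21, adjusted p = 0.0252). KCNJ2, the inward-rectifying potassium channel gene, averaged 1.03 ± 0.0763 RPKM in the libraries labelled knockdown and 0.421 ± 0.0495 RPKM in those labelled control, and KCNJ2-AS1 1.45 ± 0.0915 RPKM in the libraries labelled knockdown and 0.775 ± 0.144 RPKM in those labelled control (log2 fold change 0.90 ± 0.21, adjusted p = 0.0229). FZD10, a Wnt receptor gene, rose to 1.82, 1.6 and 1.75 RPKM in the libraries labelled knockdown, against 0.197, 0.576 and 0.41 RPKM in those labelled control (adjusted p = 0.00746). FZD10-AS1 had 1.26, 1.11 and 1.27 RPKM in the libraries labelled knockdown and 0.153, 0.665 and 0.0998 RPKM in those labelled control, which did not pass (log2 fold change 2.03 ± 0.63, adjusted p = 0.0557) although the groups did not overlap.

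In 3 pairs the antisense transcript was higher and the sense gene lower. LGALS8-AS1 averaged 1.13 ± 0.0222 RPKM in the libraries labelled knockdown and 0.513 ± 0.206 RPKM in those labelled control (log2 fold change 1.11 ± 0.32, adjusted p = 0.0448). It met the level limit only through the libraries labelled knockdown, so the selection favoured its rise. LGALS8, which encodes a sugar-binding galectin, averaged 3.33 ± 0.265 RPKM in the libraries labelled knockdown and 5.49 ± 0.164 RPKM in those labelled control (-0.72 ± 0.12, adjusted p = 0.00717). PDCD4-AS1 had 6.06, 5.66 and 4.6 RPKM in the libraries labelled knockdown, against 3.02, 3.26 and 2.8 RPKM in those labelled control (log2 fold change 0.85 ± 0.19, adjusted p = 0.0217). PDCD4, an inhibitor of the translation helicase eIF4A, had 15.3, 15.5 and 14.7 RPKM in the libraries labelled knockdown, against 26.8, 20 and 23.9 RPKM in those labelled control (-0.64 ± 0.14, adjusted p = 0.0174). With GC content and length trends removed, each of these pairs lost a call: LGALS8-AS1 had a log2 fold change of 0.94 (adjusted p = 0.0968) and PDCD4 one of -0.06 (adjusted p = 0.714).

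The last of the opposite pairs was DYNLL1-AS1 and DYNLL1. DYNLL1-AS1, named NRAV in GENCODE and known as a regulator of antiviral genes, had 5.78, 5.12 and 4.81 RPKM in the libraries labelled knockdown, against 3.59, 3.38 and 2.87 RPKM in those labelled control (log2 fold change 0.68 ± 0.16, adjusted p = 0.0259). DYNLL1, the LC8 light chain of the dynein motor, had 63.3, 64.2 and 61.8 RPKM in the libraries labelled knockdown, against 101, 103 and 75.8 RPKM in those labelled control (-0.56 ± 0.15, adjusted p = 0.0352). With GC content and length trends removed both kept their calls, with log2 fold changes of 0.73 (adjusted p = 0.0189) and -0.60 (adjusted p = 0.0199). Over all 14 alternatives DYNLL1-AS1 passed in 10 and DYNLL1 in 5, with adjusted p up to 0.15 for DYNLL1, and both kept their direction in each.

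A ratio taken within a library does not depend on its depth, except through a constant added to low levels. It was computed as log2 of antisense over sense deposited RPKM, each plus 0.1, for the 29 called members with a sense row. In 14 pairs every library labelled knockdown had a higher ratio than every control, in 6 every one had a lower ratio, and in 9 the groups overlapped. Since these members were called for a difference in the antisense level, that count is a description. Over all 219 members with a sense row the ratio was higher in 46 (21%), lower in 30 (13.7%) and overlapping in 143. For VPS9D1 the log2 ratio was -0.31, -0.23 and -0.27 in the libraries labelled knockdown, against -2.83, -2.12 and -1.88 in those labelled control, a difference of 2.01. The difference was 2.14 for CCDC183, 1.85 for USP46, 1.76 for LGALS8 and 1.21 for DYNLL1. The level of CCDC183-AS1 in control replicate 2 was close to the added 0.1, so its log2 ratio there, -2.94, depended on that constant. It was -2.69 for HNRNPU and -1.24 for SH3BP5. Each of these non-overlapping differences had an exact two-sided permutation p of 0.1, the smallest that 3 libraries against 3 allow. For THAP9, GDNF, TMEM161B, SNAI3 and PSMD5 the groups overlapped.

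**Figure D3:**
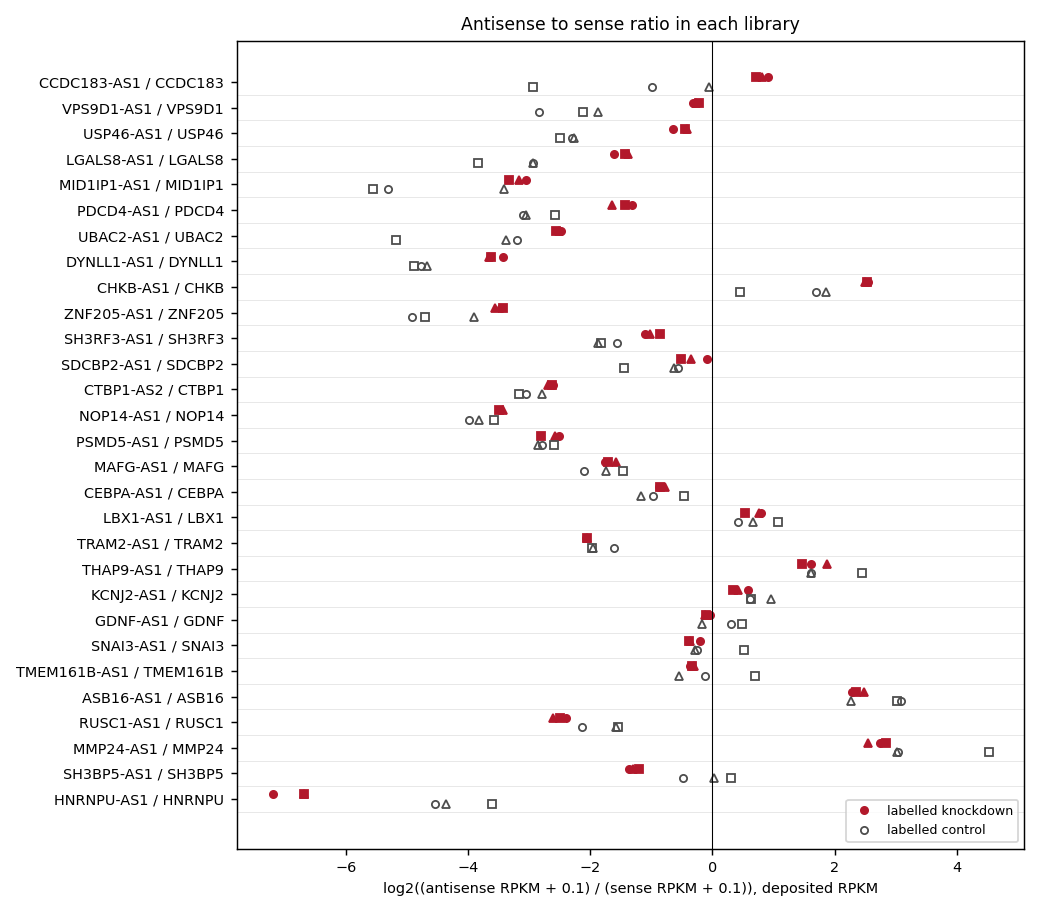
Log2 ratio of antisense to sense deposited RPKM (each plus 0.1) in each of the 3 libraries labelled knockdown (filled) and the 3 labelled control (open), for the 29 called antisense transcripts with a sense row. In 14 rows all filled symbols lie to the right of the open ones, in 6 rows to the left, and in 9 rows they overlap; positive values mean that the antisense transcript was the more abundant per length.

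Pairs were sorted by arrangement, taken from the outermost annotated ends in GENCODE release 29. In 44 pairs the genes were divergent with starts within 1000 bases of each other, in 88 they overlapped at the 5' ends, in 37 the antisense gene lay inside the sense gene, in 32 they overlapped at the 3' ends and in 12 the antisense gene spanned the sense gene. Over the 43 divergent pairs tested, r of the log2 fold changes was 0.61 and rho 0.63, and r was 0.62 after subtracting chromosome medians. Over the 86 tested 5' overlaps r was 0.38, or 0.24 after subtracting chromosome medians. It was 0.04 over the 31 tested antisense genes inside a sense gene, 0.10 over the 32 at the 3' end and 0.73 over the 10 that span it. The differences between these values were not tested.

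Of the 11 pairs called the same way, 4 were 5' overlaps, 3 divergent, 3 spanning and 1 inside the sense gene, and the 3' overlaps had 0. Of the opposite pairs, LGALS8 and DYNLL1 were classed as inside the sense gene and PDCD4 as a 5' overlap. Divergent antisense transcripts were called higher in 6 pairs and lower in 0 of the 43, beside 10.7% and 2.68% of all tested members and 9.29% and 14.7% of all genes tested. They were USP46-AS1, SH3RF3-AS1, UBAC2-AS1, CEBPA-AS1, TRAM2-AS1 and MAFG-AS1. The sense genes CEBPA, TRAM2 and MAFG were called higher with them. These classes depend on the annotation. By RefSeq starts MAFG-AS1 (-4836 bases) and SH3RF3-AS1 (-914 bases) start inside their sense genes. DYNLL1-AS1, classed as inside, starts 167 bases upstream of DYNLL1 in RefSeq. KTN1-AS1, ZEB1-AS1 and KCNJ2-AS1, which overlap the 5' ends in GENCODE, also start upstream in RefSeq. The values of r above hold for the GENCODE classes only.

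**Figure D4:**
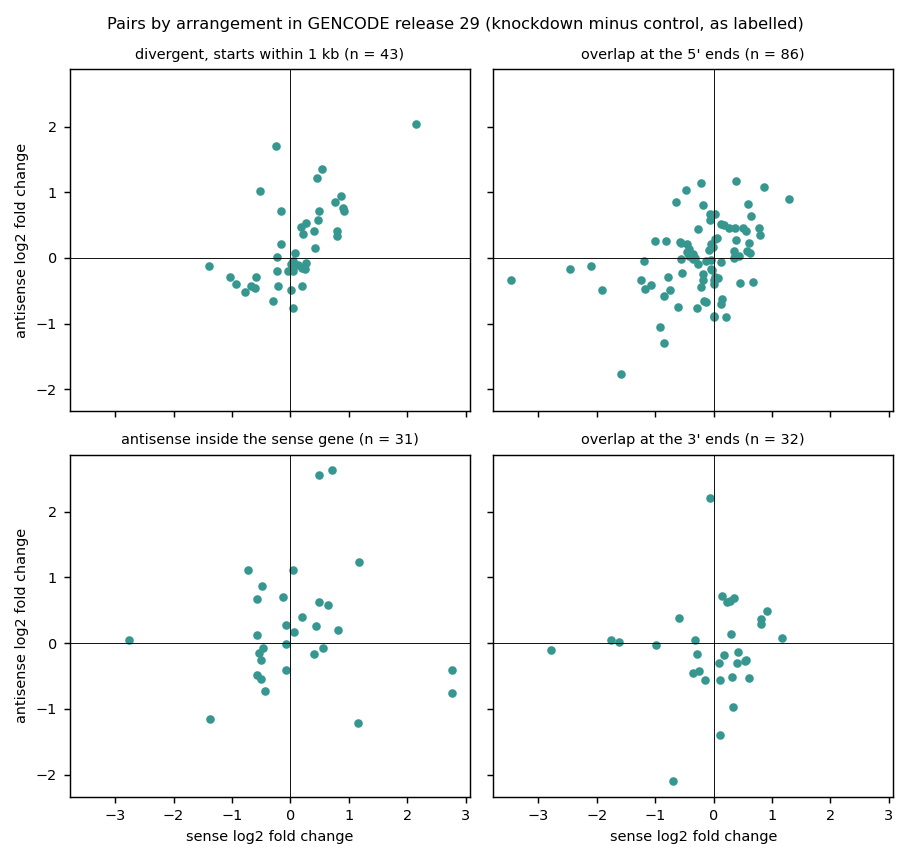
Log2 fold change of the antisense transcript (vertical axis) against its sense gene (horizontal axis), libraries labelled knockdown minus libraries labelled control, in 4 panels by arrangement. Points of the divergent pairs (n = 43, r = 0.61) follow a rising line, while those inside the sense gene (n = 31, r = 0.04) and at the 3' end (n = 32, r = 0.10) do not.

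Promoter windows of RefSeq (GRCh38.p14), from 250 bases before to 50 after a start, were on hand for both genes of 148 pairs. In 54 of these the windows overlapped, by 26 bases for TFAP2A-AS1 and by 293 for MNX1-AS1. An overlap means that some bases lie in both windows, not that the promoters are shared. Over the 54 pairs r of the log2 fold changes was 0.39 with the same sign in 33, and over the 87 tested pairs with windows apart r was 0.21 with the same sign in 53. The 6 sequences below are the antisense promoter windows of overlapping pairs with different outcomes, given 5' to 3' on the antisense strand, with 250 bases before the transcript start. KCNJ2-AS1 and TRAM2-AS1 rose with their sense genes, DYNLL1-AS1 rose while its sense gene fell, UBAC2-AS1 rose without a sense call, and ZEB1-AS1 and KTN1-AS1 were not called while their sense genes fell. Capitals mark the GC box GGGCGG, which Sp1 family factors bind, and the CCAAT box, which NF-Y binds, each on either strand (CCGCCC and ATTGG), with overlapping matches joined. Their positions are chr17:70169353-70169652 (minus strand) for KCNJ2-AS1, chr6:52576952-52577251 (plus strand) for TRAM2-AS1, chr12:120495897-120496196 (minus strand) for DYNLL1-AS1, chr13:99200708-99201007 (minus strand) for UBAC2-AS1, chr10:31320398-31320697 (minus strand) for ZEB1-AS1 and chr14:55580043-55580342 (minus strand) for KTN1-AS1.
KCNJ2-AS1: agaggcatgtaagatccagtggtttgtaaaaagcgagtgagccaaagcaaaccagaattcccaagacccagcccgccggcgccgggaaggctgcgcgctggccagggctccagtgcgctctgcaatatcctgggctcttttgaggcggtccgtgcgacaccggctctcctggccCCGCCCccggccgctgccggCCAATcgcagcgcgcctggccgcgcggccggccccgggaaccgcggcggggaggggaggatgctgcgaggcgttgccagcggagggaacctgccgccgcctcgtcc
TRAM2-AS1: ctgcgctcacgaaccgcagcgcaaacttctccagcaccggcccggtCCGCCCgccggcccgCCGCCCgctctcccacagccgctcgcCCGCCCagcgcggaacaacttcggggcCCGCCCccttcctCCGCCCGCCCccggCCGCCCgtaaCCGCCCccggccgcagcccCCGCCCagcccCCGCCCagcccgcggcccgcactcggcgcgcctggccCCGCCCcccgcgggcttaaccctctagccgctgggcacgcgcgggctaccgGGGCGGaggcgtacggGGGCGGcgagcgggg
DYNLL1-AS1: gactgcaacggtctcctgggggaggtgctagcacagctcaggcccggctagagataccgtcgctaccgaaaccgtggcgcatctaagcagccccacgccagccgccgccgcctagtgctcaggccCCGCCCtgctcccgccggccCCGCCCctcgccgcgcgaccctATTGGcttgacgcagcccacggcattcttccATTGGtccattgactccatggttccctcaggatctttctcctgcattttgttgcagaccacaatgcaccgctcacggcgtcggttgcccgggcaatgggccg
UBAC2-AS1: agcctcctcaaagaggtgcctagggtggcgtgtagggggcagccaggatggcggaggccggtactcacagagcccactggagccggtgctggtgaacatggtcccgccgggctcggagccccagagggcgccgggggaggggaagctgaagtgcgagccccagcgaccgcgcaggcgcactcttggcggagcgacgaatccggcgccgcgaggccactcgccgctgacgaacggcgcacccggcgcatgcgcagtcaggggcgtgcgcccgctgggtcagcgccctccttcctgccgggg
ZEB1-AS1: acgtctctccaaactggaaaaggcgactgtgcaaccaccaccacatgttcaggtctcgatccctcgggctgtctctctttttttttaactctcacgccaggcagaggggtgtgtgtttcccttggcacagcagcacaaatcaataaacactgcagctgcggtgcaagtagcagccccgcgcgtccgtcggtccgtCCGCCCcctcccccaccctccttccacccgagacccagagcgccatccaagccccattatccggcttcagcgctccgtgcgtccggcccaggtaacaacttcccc
KTN1-AS1: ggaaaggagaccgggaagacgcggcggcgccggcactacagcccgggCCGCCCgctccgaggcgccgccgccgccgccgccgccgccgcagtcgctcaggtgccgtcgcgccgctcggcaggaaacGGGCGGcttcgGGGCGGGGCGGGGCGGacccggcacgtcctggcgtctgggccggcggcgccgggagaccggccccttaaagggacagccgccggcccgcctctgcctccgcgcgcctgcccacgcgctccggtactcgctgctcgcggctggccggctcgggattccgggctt

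All 6 windows were rich in G and C, at 70% for KCNJ2-AS1, 82% for TRAM2-AS1, 65.7% for DYNLL1-AS1, 73% for UBAC2-AS1, 60% for ZEB1-AS1 and 80% for KTN1-AS1. The sense gene's start lay inside each window, 130 bases from the antisense start for KCNJ2, 142 for TRAM2, 167 for DYNLL1, 97 for UBAC2, 107 for ZEB1 and 115 for KTN1. The TRAM2-AS1 window held 13 GC boxes, KTN1-AS1 5, DYNLL1-AS1 2, KCNJ2-AS1 1, ZEB1-AS1 1 and UBAC2-AS1 0. CCAAT boxes were found in the windows of DYNLL1-AS1 (2) and KCNJ2-AS1 (1). The GC box was in 77.8% of the 54 overlapping antisense windows, 60.1% of the 148 antisense windows and 44.9% of all 34943 promoter windows. The CCAAT box was in 35.2%, 33.8% and 34.6% of the same sets, and the TATA box TATAAA, also read on both strands, in 3.7%, 4.05% and 11.6%. A match is a run of letters in the window and not evidence that a factor binds there.

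Exons shared with the opposite strand bear on what could be counted. No source used here states whether counting used strand. How reads were assigned where exons of an antisense transcript and its sense gene overlap is therefore not known. Of 291 GENCODE antisense genes whose exons lie wholly within exons of the opposite strand, 271 (93.1%) had 0 counts in every library, against 449 of 2174 (20.7%) with part of their exons shared and 710 of 2128 (33.4%) with none. Whether reads in shared exons were left out, mixed or assigned by strand was not tested. The shares that follow therefore do not measure mixing of reads, and they cover exons only, not introns of the opposite gene. The members had a median of 7.95% and at most 82.3% of exonic bases shared, and 62 shared none. Of the members described above, MID1IP1-AS1 shared 40.2%, LGALS8-AS1 46.2%, VPS9D1-AS1 29.5% and THAP9-AS1 4.53%, while USP46-AS1, PDCD4-AS1, DYNLL1-AS1 and PSMD5-AS1 shared 0%. HNRNPU-AS1 and ZNF205-AS1 had no entry under their identifier in that annotation.

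Control replicate 2 departed from the other controls in many members. It was at least 2-fold above the higher of control replicates 1 and 3 in 38 members, 16.5% of them against 7.53% of all genes tested. It was at least 2-fold below the lower of both in 13, 5.65% against 8.19%. The mean level that selected the members included this library, so the selection favoured members high in it. All genes tested were chosen by another filter, on counts, so these shares are a description. The median SD of log2 level over 3 libraries was 0.11 in the group labelled knockdown and 0.40 in the group labelled control, and it was the larger in the control group for 210 of the 230 members. EPB41L4A-AS1, left out by the rule, was also far higher in that library, with 5.64, 6.2 and 5.89 RPKM in the libraries labelled knockdown and 6.79, 55.6 and 5.1 RPKM in those labelled control.

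**Figure D5:**
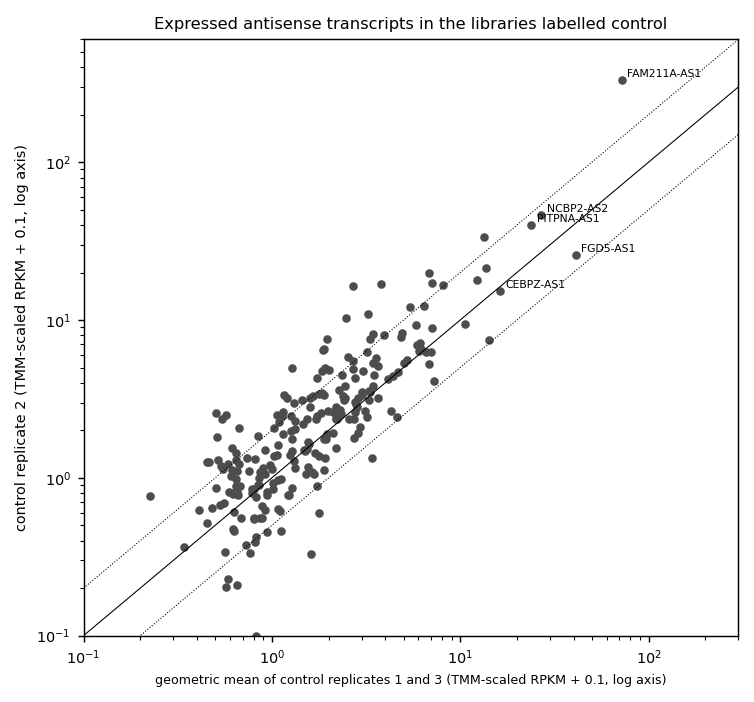
Level of each of the 230 antisense transcripts in control replicate 2 (vertical axis) against the geometric mean of control replicates 1 and 3 (horizontal axis), in TMM-scaled RPKM plus 0.1 on log axes, with the solid line at equality and dotted lines at 2-fold. More points lie above the upper dotted line than below the lower one, and FAM211A-AS1 is the point at the top right. The mean level that selected the points included control replicate 2.

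Genes of the machinery that degrades or processes antisense RNA included several large falls in the libraries labelled knockdown, such as ZFC3H1, DIS3, PHF3 and UPF3B. Over all genes tested 14.7% were lower and 9.29% higher. With GC content and length trends removed, 2007 of 17302 tested genes were lower and 1733 higher. Of 25 tested genes of the nuclear exosome and its adaptors, 8 were lower and 2 higher (median log2 fold change -0.21, against -0.04 over all genes tested), or 6 and 6 with GC content and length trends removed. ZFC3H1, which links the exosome to polyadenylated nuclear RNA, averaged 1.45 ± 0.0923 RPKM in the libraries labelled knockdown and 6.2 ± 0.43 RPKM in those labelled control (log2 fold change -2.10 ± 0.13, adjusted p = 0.000283). SKIV2L2, the exosome helicase MTR4, fell by 1.79 on the log2 scale (adjusted p = 0.0007), and the exosome nuclease DIS3 by 1.80 (adjusted p = 0.00238).

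The shares over all genes tested, 14.7% lower and 9.29% higher, are the background of the following lists too. Of 35 genes of 3' end formation and termination, 11 were lower and 1 higher (median -0.17), or 8 and 3 with GC content and length trends removed. PHF3, a binder of the RNA polymerase II tail, fell by 2.55 on the log2 scale (adjusted p = 0.000283) and CPSF1, of the poly(A) signal recognition complex, by 0.91 (adjusted p = 0.00844). INTS5, an Integrator subunit, rose by 0.91 (adjusted p = 0.00372). Of 20 genes of nonsense-mediated decay 6 were lower and 1 higher (median -0.17), or 4 and 0 after that correction, among them UPF3B (-2.62, adjusted p = 0.000283), UPF2 (-2.27, adjusted p = 0.000283) and the 5' exonuclease XRN1 (-1.50, adjusted p = 0.00171). Of 22 tested genes that bind or edit double-stranded RNA, 3 were lower and 0 higher (median 0.06), or 2 and 1 with GC content and length trends removed. The 3 were ILF2 (-0.65, adjusted p = 0.0278), the RNA sensor DDX58 (-0.50, adjusted p = 0.0381) and STAU2 (-0.56, adjusted p = 0.0476). DDX58 and STAU2 were not called with GC content and length trends removed (adjusted p = 0.591 and 0.621).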

How the data were processed

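Per the labels' protocols, total RNA of HEK293 cells was rRNA-depleted, treated with an RNA methylation (bisulfite) kit and made into stranded libraries. Whether the deposited table comes from treated libraries, which aligner was used and how strand was set are not given in the sources used here. The submitters' processing notes name the build hg19, the counting tools HTSeq 0.6.1 and StringTie 1, the test packages edgeR 3.4.6, DESeq 1.18.0 and DESeq2 1.6.3, and the demultiplexer bcl2fastq 2.17.1.14. The deposited table held raw counts per gene, not normalized by the authors, RPKM values of the same counts, and exonic lengths. The deposited RPKM equalled counts scaled by exonic length and library total within 0.006 for 100% of values. The columns' second names, given in the sample descriptions, tied each to a sample, and read the other way round from the titles.

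Counts of all 6 libraries were fitted with edgeR 4.0.16 (R 4.3.3) using TMM, filterByExpr and the robust quasi-likelihood F test, with Benjamini-Hochberg adjustment over 17805 genes. Log2 fold changes are libraries labelled knockdown minus libraries labelled control, ± SE. Counts of each pair of libraries within a group differed beyond sampling noise, but unequally. Chi-square per degree of freedom was 3.9 to 6.98 between libraries labelled knockdown. Between control replicates 1 and 3 it was 26.4, and it was 208.7 and 279.3 for the pairs with control replicate 2. The fit used 1 estimate of spread for both groups. TMM-scaled RPKM are TMM-scaled CPM per exonic kilobase. GENCODE release 29 (GRCh38), matched by gene identifier, gave positions, types and base composition; the authors' coordinates were not used. RefSeq promoter windows were matched by symbol or synonym for 169 members. GC and length trends were removed as offsets from mgcv 1.9.3 smooth terms. Other alternatives were DESeq2 1.42.0, limma 3.58.1 on log2(RPKM + 1), other scalings and filters, leaving out each library and a replicate block. The fit was tested on simulated data.

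The members, the lists and the alternatives were chosen with earlier results of these data known. The text names the 5 members with the highest mean RPKM, the 10 largest rises and up to 10 largest falls among called members whose groups do not overlap, their sense genes, pairs called in opposite directions, and the 3 members of each list with the smallest p among those called. Other names were chosen after their values were seen.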

Additional observations from a re-analysis of the deposited data

How the results depend on the processing

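The counts of calls were 24 higher and 6 lower antisense members, and 33 higher and 34 lower sense genes. DESeq2 called 37 and 15 antisense members, including all 30 reported, and limma on log2(RPKM + 1) called 37 higher members and 18 lower sense genes. Of all genes tested DESeq2 called 32.4% and limma 22.5%, beside 23.2% and 19.2% of members. The replicate numbers do not pair the libraries: same-numbered libraries' deviations from their group means correlated at -0.04, 0.06 and 0.001. With the replicate block there were 12 higher members and 21 higher sense genes, and with the block and GC content and length trends removed 14 higher members, 20 higher and 11 lower sense genes. Those fits called 16.7% and 12.9% of all genes tested, beside 7.59% and 8.64% of members. Leaving out 1 library gave 3 to 62 higher and 3 to 23 lower members, and 9 to 65 higher and 13 to 66 lower sense genes, with the most calls without control replicate 2 in each case. Over all genes tested these fits called 6.67% to 48.5%, beside 3.11% to 37.8% of members, again with the most without control replicate 2. With GC content and length trends removed 31 members were called, 20 of them among the 30. That was 14.1% of members, beside 21.6% of all genes tested. The other scalings and the filter left all 4 counts within 1.5 times, and the other level limits, run for the antisense members, both of theirs. Over the named genes 524 values kept their side of the threshold, 18 of them with another sign but no call in either fit, 104 lost a call, 9 gained one and 3 changed sign with a call in either fit. The last were CEBPZ-AS1, at 0.63 with GC content and length trends removed and 0.63 with the block added, and HNRNPU, at -0.22 without control replicate 2 and at most 0.22 without another library. VPS9D1-AS1, USP46-AS1, PSMD5-AS1, THAP9-AS1 and GDNF-AS1 passed in 14 of 14 alternatives, and HNRNPU-AS1 in 12 of the 12 it could enter. The cause of each move was not tested, though leaving out a library also leaves fewer samples. The members had a median of 136 counts per library and a median SE of 0.25 on the log2 scale, against 0.22 over all genes tested.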
